A study of Caenorhabditis elegans with 32 samples.

Results

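The genes described here are 43 enzymes of central carbon metabolism in Caenorhabditis elegans. They cover glycolysis, gluconeogenesis, the pyruvate dehydrogenase complex, the TCA cycle and the glyoxylate shunt, were chosen by gene symbol as members of these pathways, and were 43 of the 46748 genes in the table of the muscle experiment. All 43 symbols were found. They were spread over every chromosome, with 10 genes on chromosome I, 6 on II, 8 on III, 7 on IV, 5 on V and 7 on X.

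Worms of strain WBM1339 were moved as synchronized L1 larvae to plates of bacteria for control RNAi (empty vector, EV) or dimt-1 RNAi and were collected as young adults, so every group shared the strain, the stage and the RNAi feeding. In each RNAi condition, 4 libraries held muscle ribosome-bound mRNA, pulled down with an antibody to FLAG-tagged ribosomal subunits (translating ribosome affinity purification, TRAP), and 4 held total RNA of the whole-worm lysate, which makes 16 libraries. DIMT-1 is an 18S rRNA methyltransferase, and the design asks how its knock-down changes mRNA level in whole worms and ribosome-bound mRNA in muscle. The promoter that drives the tagged subunit in WBM1339 is not given in the sources used here. The labels call the 4 libraries of a group biological replicates without naming separate cultures, so p-values measure the spread between these samples.

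Glycolysis splits glucose to pyruvate with a net gain of ATP, and the TCA cycle oxidizes the acetyl-CoA made from pyruvate in mitochondria. Several of the steps are encoded in the worm by more than 1 gene, so a tissue can draw on different isoenzymes for the same reaction. Nematodes also carry a glyoxylate shunt, which bypasses the decarboxylating steps of the TCA cycle and, with phosphoenolpyruvate carboxykinase, lets fat feed glucose synthesis. Body wall muscle is a contractile tissue that uses both pathways for ATP.

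The mRNA of the RNAi target dimt-1 (E02H1.1 in the table) was measured first. In total RNA its level was 23.1, 25.8, 25.2 and 22.8 CPM (counts over the library total, brought to a common scale by the trimmed mean of M values, TMM) in EV replicates 1 to 4 and 16.6, 19.7, 24.2 and 15.1 CPM in the dimt-1 RNAi libraries. The library labelled dimt-1 RNAi replicate 3 thus lay inside the EV range, and the other dimt-1 RNAi libraries lay below it (log2 fold change -0.33, SE 0.12, edgeR adjusted p = 0.228). In TRAP the level was 23.3, 10.8, 13.6 and 15.9 CPM on EV and 19.6, 21, 16 and 33.9 CPM on dimt-1 RNAi, where the difference pointed up (0.48, SE 0.32, adjusted p = 0.794). TRAP did not show the knock-down, so groups are named here by their labels. On the first principal component of total RNA, with 56.6% of the variance, the library labelled dimt-1 RNAi replicate 3 (-20.7) also fell among the EV libraries (-20.9 to -16.7), whereas the other dimt-1 RNAi libraries ran from 15.7 to 43.4.

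Library totals ran from 34794250 to 49782576 counts. The 12 body wall muscle markers summed to between 4407 and 5841 CPM in total RNA and between 140353 and 202602 CPM in TRAP, and all 12 were higher in TRAP in both RNAi conditions (median log2 4.38 on EV), while 10 of 10 germline and oocyte markers were lower (median -1.0 on EV). Of the 10 intestine markers, 6 were lower in TRAP on EV. Neuronal markers were split, with 2 higher and 2 lower. Of the pharynx markers, 1 was higher and 3 were lower. Of 7 hypodermis markers tested 4 were lower, and of 13 sperm markers 0 were called. The neuronal marker rgef-1, the sperm markers spe-9 and spe-38 and the hypodermal marker bli-1 had 0 counts in every TRAP library on EV. Their lists as a whole were not absent from TRAP. On EV hypodermis markers summed to 4931 to 5308 CPM in TRAP and 6008 to 6640 CPM in total RNA. Intestine markers summed to 11320 to 15032 and 17628 to 20667 CPM, and neuronal markers to 263 to 305 and 212 to 237 CPM. TRAP libraries also differed in the number of genes with between 1 and 20 counts, which was 205 to 535 on EV, 204 in the library labelled dimt-1 RNAi replicate 3 and up to 3674 in the other dimt-1 RNAi libraries.

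The 43 enzymes took a larger share of the TRAP libraries than of the total RNA libraries. On EV they made up 2.39% ± 0.037 (SD, n = 4) of the counts in TRAP, with values from 2.35% to 2.43%, and 1.09% ± 0.024 in total RNA, from 1.06% to 1.12%. On dimt-1 RNAi the share was 2.08% ± 0.13 in TRAP, from 1.94% to 2.23%, and 0.968% ± 0.089 in total RNA, from 0.900% to 1.09%. The highest of the total RNA values on dimt-1 RNAi, 1.09%, was that of replicate 3, and every TRAP library on EV was above every TRAP library on dimt-1 RNAi.

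**Figure D1:**
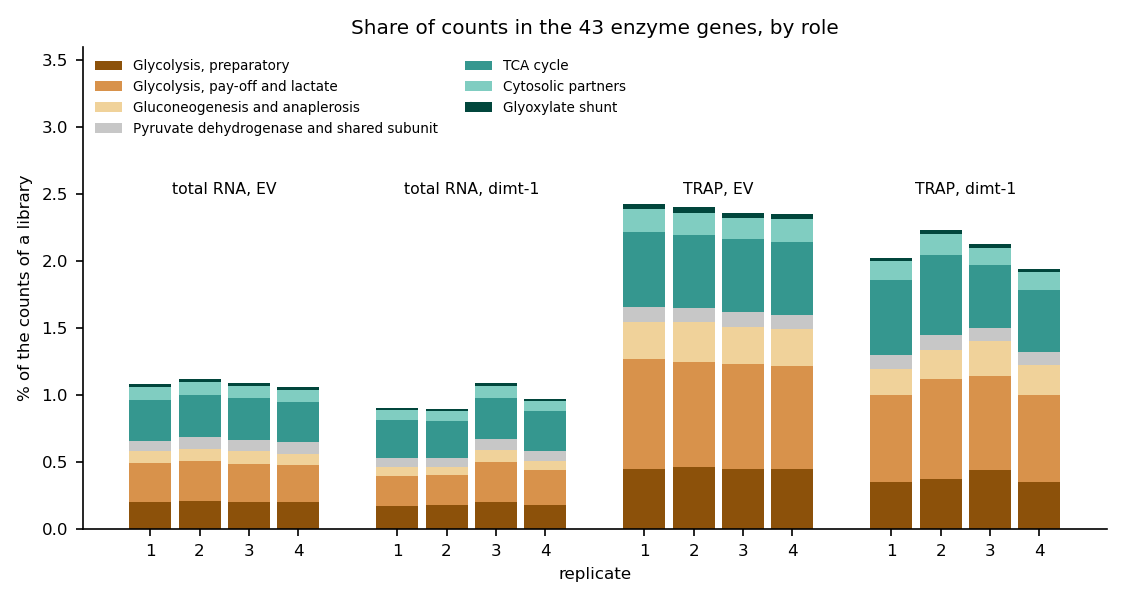
Share of all counts (%) taken by the 43 enzymes in each of the 16 libraries, stacked by the role of the gene. The 4 TRAP libraries on EV sit between 2.35% and 2.43%, above the 4 on dimt-1 RNAi (1.94% to 2.23%), and all TRAP libraries sit above all total RNA libraries (0.900% to 1.12%).

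TRAP was compared with total RNA of the lysate within each RNAi condition. On EV, 34 of the 43 enzymes were higher in TRAP, 5 were lower and 4 did not pass an adjusted p of 0.05 (edgeR quasi-likelihood test). Over all 13778 genes tested in that comparison, 17.6% were higher and 21.9% were lower. The median log2 fold change of the 43 enzymes was 2.15, or 4.42-fold, beside -0.26 over all genes. On dimt-1 RNAi 32 were higher, 3 were lower and 8 did not pass, beside 17.2% higher and 10.9% lower of 14785 genes, and the median was 1.97, or 3.92-fold, beside -0.14.

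The same 32 enzymes were higher in both conditions, and hxk-1, aco-1 and idhg-1 were lower in both. pck-2 and pyc-1 passed as higher and aldo-2 and idh-1 as lower on EV but not on dimt-1 RNAi, and pfk-1.2, gpd-1, gpd-4 and sucg-1 passed in neither. With the replicate number as a block, pck-2 passed on dimt-1 RNAi too (0.62, adjusted p = 0.00126, in place of 0.61 and 0.0638). The TMM scaling factors differed between fractions, at 0.525 to 0.692 in TRAP and 1.56 to 1.78 in total RNA, and scaling by library size alone moved the median of all genes by -1.43 on EV and -1.42 on dimt-1 RNAi. Under that scaling 27 enzymes were higher and 10 lower on EV, and 25 were higher and 12 lower on dimt-1 RNAi. Higher calls then made up 73.0% of the calls on EV in place of 87.2%, and 67.6% in place of 91.4% on dimt-1 RNAi.

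**Figure D2:**
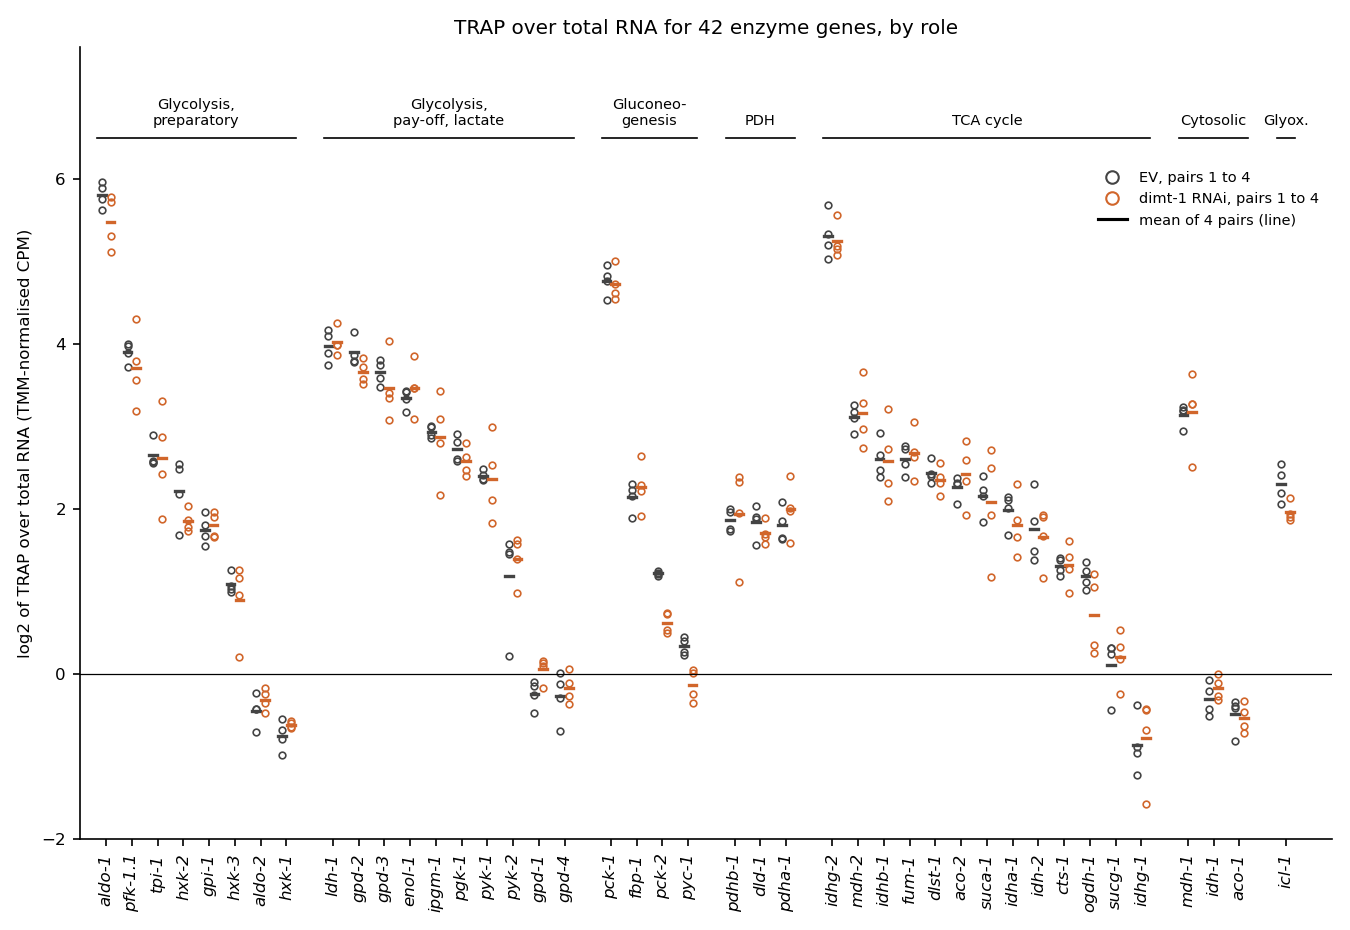
Log2 ratio of the level in TRAP to the level in total RNA for 42 enzymes (pfk-1.2 is left out because of libraries at 0), 1 point for each same-numbered pair of libraries, EV in grey and dimt-1 RNAi in orange, ordered by role. aldo-1, idhg-2 and pck-1 lie at the top of the range with fitted log2 values of 5.81, 5.34 and 4.78 on EV, and hxk-1 and idhg-1 lie below 0 in both conditions.

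In the preparatory phase of glycolysis, which spends ATP to make triose phosphates, 6 of 9 enzymes were higher in TRAP on EV, 2 were lower and 1 did not pass (median log2 1.75). Hexokinase, which phosphorylates glucose, is encoded by 3 genes that were distributed differently. hxk-1 stood at 252, 249, 249 and 253 CPM in total RNA and at 172, 144, 155 and 128 CPM in TRAP on EV. All TRAP values of hxk-1 were below all total RNA values (-0.75, SE 0.09, adjusted p = 0.000114). hxk-2 had 48.2, 52.4, 58.8 and 53.5 CPM in total RNA and 270.4, 305, 188 and 243 CPM in TRAP, without overlap (2.24, SE 0.14). hxk-3 was also higher in TRAP, by 1.09 on the log2 scale (SE 0.11), a sign that scaling by library size alone turned. On dimt-1 RNAi its higher call (0.94) was lost without dimt-1 RNAi replicate 1.

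Phosphofructokinase, the committed step of glycolysis, came almost wholly from pfk-1.1. Its level was 61.4, 71.1, 62.5 and 55.3 CPM in total RNA and 986, 1055, 823 and 871 CPM in TRAP on EV, a 14.9-fold difference with no overlap. The second gene, pfk-1.2, had 44, 22, 20 and 14 counts in total RNA on EV and 14, 0, 0 and 0 counts in TRAP, where a count of 0 allows up to 3. Glucose-6-phosphate isomerase gpi-1 (1.75, SE 0.10) and triosephosphate isomerase tpi-1 (2.66, SE 0.10) were higher in TRAP on EV.

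Aldolase cleaves fructose-1,6-bisphosphate, and its 2 genes were separated between the fractions. The coding sequences of aldo-1 (chrIII:13563346-13564937, minus strand) and aldo-2 (chrIII:5874673-5876625, minus strand; build WBcel235) were 69.4% identical over the aligned bases and shared no run of 100 bases. The exon stretches below were picked as the 75 coding bases inside 1 exon where the genes differ most. They are therefore not typical of the whole coding sequence. The letters in capitals mark the 33 of 75 positions that differ, over coding bases 379 to 453 of aldo-1 (chrIII:13564367-13564441) and 388 to 462 of aldo-2 (chrIII:5875464-5875538), taken from RefSeq WBcel235 in the sense of the gene.
aldo-1: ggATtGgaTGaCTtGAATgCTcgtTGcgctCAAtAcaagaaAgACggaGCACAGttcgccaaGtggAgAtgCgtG
aldo-2: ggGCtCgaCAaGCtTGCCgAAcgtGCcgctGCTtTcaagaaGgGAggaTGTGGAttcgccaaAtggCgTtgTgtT

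aldo-1 had 86.0, 90.5, 82.7 and 75.7 CPM in total RNA and 4636, 5624, 4084 and 4481 CPM in TRAP on EV. The difference was 56.1-fold (log2 5.81, SE 0.13, adjusted p = 3.38e-10), the highest of the 43 enzymes, and 45.4-fold on dimt-1 RNAi. aldo-2 had 565, 587, 549.7 and 536 CPM in total RNA and 421, 359.7, 468 and 399 CPM in TRAP on EV, so that it was lower in TRAP (-0.44, SE 0.09, adjusted p = 0.00233). An exon of aldo-2 overlaps F01F1.3 on the other strand, and whether the counting used strand is not given in the sources used here.

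In the pay-off phase, which recovers ATP and ends in pyruvate and lactate, 8 of 10 enzymes were higher in TRAP in both RNAi conditions and none was lower (median log2 2.83 on EV and 2.75 on dimt-1 RNAi). The members that did not pass were gpd-1 and gpd-4. Glyceraldehyde-3-phosphate dehydrogenase (GAPDH) is encoded by these genes on chromosome II and by gpd-2 and gpd-3 on chromosome X, which lie 101 bases apart. The coding sequences were 99.0% identical between gpd-1 and gpd-4 and 97.4% between gpd-2 and gpd-3, with 43.4% and 20.3% of 100-base windows shared, so the split of counts within each pair is uncertain. Between gpd-1 and gpd-2 the identity was 79.2% and no 100-base window was shared. The stretches below are coding bases 280 to 354 of each gene. They were picked for having the most positions, the 27 capitals, that separate 1 pair from the other (chrII:10394416-10394490 plus strand, chrII:10171559-10171633 plus strand, chrX:3114285-3114359 minus strand and chrX:3112919-3112993 minus strand, in the order listed, WBcel235).
gpd-1: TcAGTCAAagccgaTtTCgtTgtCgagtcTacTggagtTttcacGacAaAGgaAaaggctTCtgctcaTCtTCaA
gpd-4: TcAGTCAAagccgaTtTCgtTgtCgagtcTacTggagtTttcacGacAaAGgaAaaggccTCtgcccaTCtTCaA
gpd-2: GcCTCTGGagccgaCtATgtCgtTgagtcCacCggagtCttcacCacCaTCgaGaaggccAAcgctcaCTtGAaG
gpd-3: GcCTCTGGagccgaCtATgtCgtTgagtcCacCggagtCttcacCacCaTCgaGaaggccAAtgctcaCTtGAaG

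gpd-2 had 159.9, 176, 156 and 163 CPM in total RNA and 2832, 2568, 2154 and 2264 CPM in TRAP on EV (14.9-fold). gpd-3 had 193, 189, 174 and 163 CPM in total RNA and 2599, 2639.7, 1946 and 1953 CPM in TRAP (12.7-fold). For the chromosome II pair the fractions overlapped. gpd-1 had 273, 319, 280.3 and 258 CPM in total RNA and 196, 267, 263 and 233 CPM in TRAP (-0.24, SE 0.11, adjusted p = 0.116), and gpd-4 had 171, 187, 168 and 147 CPM in total RNA and 140.2, 115, 169 and 134 CPM in TRAP (-0.27, SE 0.12, adjusted p = 0.117). On dimt-1 RNAi the log2 fold changes were 0.07 for gpd-1, whose sign turned under scaling by library size alone, and -0.18 for gpd-4. An exon of gpd-2 overlaps mai-1, its operon neighbour.

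The remaining pay-off enzymes were all higher in TRAP on EV. Phosphoglycerate kinase pgk-1 was 6.64-fold higher, phosphoglycerate mutase ipgm-1 7.65-fold and enolase enol-1 10.2-fold. Lactate dehydrogenase ldh-1 regenerates NAD+ as it reduces pyruvate to lactate. It had 51.9, 59.7, 53.4 and 52.1 CPM in total RNA and 884, 1077, 717 and 771 CPM in TRAP, a 15.8-fold difference. Pyruvate kinase was higher for pyk-1 (2.40, SE 0.06) and pyk-2 (1.26, SE 0.26), and scaling by library size alone turned the sign of pyk-2. pyk-2 was the least even of these genes, with 22.9 CPM in TRAP replicate 1 and 57.0, 44.3 and 55.0 CPM in the others.

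All 4 genes of gluconeogenesis and anaplerosis were higher in TRAP on EV (median log2 1.68), and 2 of 4 were on dimt-1 RNAi (median 1.44). Phosphoenolpyruvate carboxykinase (PEPCK) makes phosphoenolpyruvate from oxaloacetate and is encoded by pck-1 and pck-2. pck-1 had 137, 148, 137 and 128 CPM in total RNA and 3872, 4616, 3160.1 and 3495 CPM in TRAP on EV (27.4-fold). pck-2 had 136, 159, 153 and 138 CPM in total RNA and 325, 362, 357 and 320.1 CPM in TRAP, and its 2.32-fold difference turned sign under scaling by library size alone. The total RNA levels of the genes thus overlapped, and in TRAP the lowest pck-1 value was far above the highest pck-2 value. An exon of pck-2 overlaps suro-1 on the other strand. Pyruvate carboxylase pyc-1, which makes oxaloacetate from pyruvate, was higher by 0.34 (SE 0.09, adjusted p = 0.0101) on EV and turned negative under scaling by library size alone. Fructose-1,6-bisphosphatase fbp-1, which reverses the phosphofructokinase step, was 4.42-fold higher on EV and 4.79-fold higher on dimt-1 RNAi.

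The subunits of the pyruvate dehydrogenase complex, which joins glycolysis to the TCA cycle, were higher in TRAP in 3 of 3 cases in both conditions. On EV the fold was 3.51 for the E1 alpha subunit pdha-1, 3.63 for the E1 beta subunit pdhb-1 and 3.58 for dihydrolipoamide dehydrogenase dld-1, the E3 subunit that 2-oxoglutarate dehydrogenase shares. These values lie within 1 SE of each other on the log2 scale (1.81, 1.86 and 1.84, SE 0.09 to 0.12).

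Of the 13 mitochondrial TCA cycle genes, 11 were higher in TRAP, 1 was lower and 1 did not pass, in both conditions (median log2 2.16 on EV and 2.17 on dimt-1 RNAi). NAD-dependent isocitrate dehydrogenase has an alpha, a beta and a gamma subunit, and the gamma subunit is encoded by idhg-1 (chrIII:4568797-4571865) and idhg-2 (chrI:6974558-6977071). idhg-2 had 14, 14.5, 11 and 14.6 CPM in total RNA and 567, 742, 402 and 477 CPM in TRAP on EV (40.4-fold, log2 5.34, SE 0.21). idhg-1 had 103, 105, 111 and 103 CPM in total RNA and 55.6, 80.7, 47.7 and 53.0 CPM in TRAP, lower without overlap (-0.84, SE 0.15, adjusted p = 0.00144). On dimt-1 RNAi the lower call of idhg-1 was lost without dimt-1 RNAi replicate 1, 2 or 4. Whichever gamma gene was the minor form in total RNA was therefore the major form in TRAP. The alpha subunit idha-1 (1.99) and the beta subunit idhb-1 (2.61) were higher. An exon of idhg-1 overlaps sel-5 on the other strand. Exons of 12 enzymes overlapped another gene, among them also pyk-2, pdha-1, cts-1, aco-2, idh-1, idh-2, idha-1 and fum-1.

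Other steps of the cycle moved by less than idhg-2. Mitochondrial malate dehydrogenase mdh-2 was 8.64-fold higher in TRAP on EV, fumarase fum-1 6.07-fold, the E2 subunit of 2-oxoglutarate dehydrogenase dlst-1 5.41-fold and mitochondrial aconitase aco-2 4.80-fold. Citrate synthase cts-1 (1.31) and the E1 subunit ogdh-1 (1.18) were also higher on EV, with signs that turned under scaling by library size alone. On dimt-1 RNAi the call of ogdh-1 (0.78) was lost without dimt-1 RNAi replicate 1 or 2. Succinyl-CoA ligase pairs a common alpha subunit with either an ADP-forming beta subunit, suca-1, or a GDP-forming one, sucg-1. suca-1 had 64, 70.4, 66 and 59.8 CPM in total RNA and 339, 253, 293 and 279.6 CPM in TRAP (4.47-fold), whereas sucg-1 had 80.8, 81.2, 71.3 and 80.4 CPM in total RNA and 100.2, 95.6, 88.4 and 59.1 CPM in TRAP (0.13, SE 0.15, adjusted p = 0.618, a sign that turned under scaling by library size alone).

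The cytosolic partners of TCA cycle enzymes divided. Cytosolic malate dehydrogenase mdh-1, part of the malate-aspartate shuttle, was 8.82-fold higher in TRAP on EV, close to its mitochondrial partner. Cytosolic aconitase aco-1 was lower (-0.48, SE 0.13, adjusted p = 0.0134), and so was NADP-dependent isocitrate dehydrogenase idh-1 (-0.30, SE 0.09, adjusted p = 0.0224). Both calls were lost with DESeq2 size factors, and that of idh-1 also without EV replicate 1, 3 or 4. The glyoxylate shunt enzyme icl-1, which carries isocitrate lyase and malate synthase in 1 protein, was 4.95-fold higher on EV and 3.92-fold higher on dimt-1 RNAi.

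Ranked by level per kilobase of annotated exon, the order of the enzymes differed between fractions. In total RNA on EV the highest mean levels were those of aldo-2 (411 CPM per kb), enol-1 (276), mdh-2 (267), mdh-1 (253) and gpd-1 (252). In TRAP on EV they were those of aldo-1 (3756 CPM per kb), enol-1 (2808), mdh-2 (2308), mdh-1 (2237), gpd-2 (2131), gpd-3 (1978) and pck-1 (1837). The SDs of these TRAP levels were 266 to 523, and the order among mdh-2, mdh-1, gpd-2, gpd-3 and pck-1 was not tested. In total RNA the order among enol-1, mdh-2, mdh-1 and gpd-1 was not tested either (SD 15.9 to 23.4). ldh-1 came next in TRAP at 749 CPM per kb.

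The make-up of each isoenzyme family was then compared as the share of its summed level per kilobase, a quantity that no scaling between libraries can change. On EV, aldo-1 made up 14.0% ± 0.46 (SD, n = 4) of aldolase in total RNA and 92.4% ± 1.6 in TRAP. idhg-2 made up 15.7% ± 2.1 of the gamma subunit in total RNA and 93.0% ± 0.51 in TRAP. gpd-2 and gpd-3 together made up 42.7% ± 1.3 of GAPDH in total RNA and 92.3% ± 1.6 in TRAP. In these families a single gene or gene pair thus supplied nearly all of the TRAP signal and less than the other genes in total RNA.

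Shares moved less in the other families. pck-1 went from 60.2% ± 1.2 of PEPCK in total RNA to 94.6% ± 0.84 in TRAP, and hxk-2 from 16% ± 1.0 to 51.3% ± 6.3 of hexokinase. suca-1 went from 41.7% ± 2.4 to 74.6% ± 4.4 of the succinyl-CoA ligase beta subunits, and idh-2 from 9.67% ± 0.65 to 31% ± 5.8 of NADP-dependent isocitrate dehydrogenase. mdh-1 made up 48.7% of malate dehydrogenase in total RNA and 49.2% in TRAP. The family sums followed the genes that were higher, with aldolase at 478 CPM per kb in total RNA and 4059 in TRAP, and malate dehydrogenase at 519.7 and 4544.

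**Figure D3:**
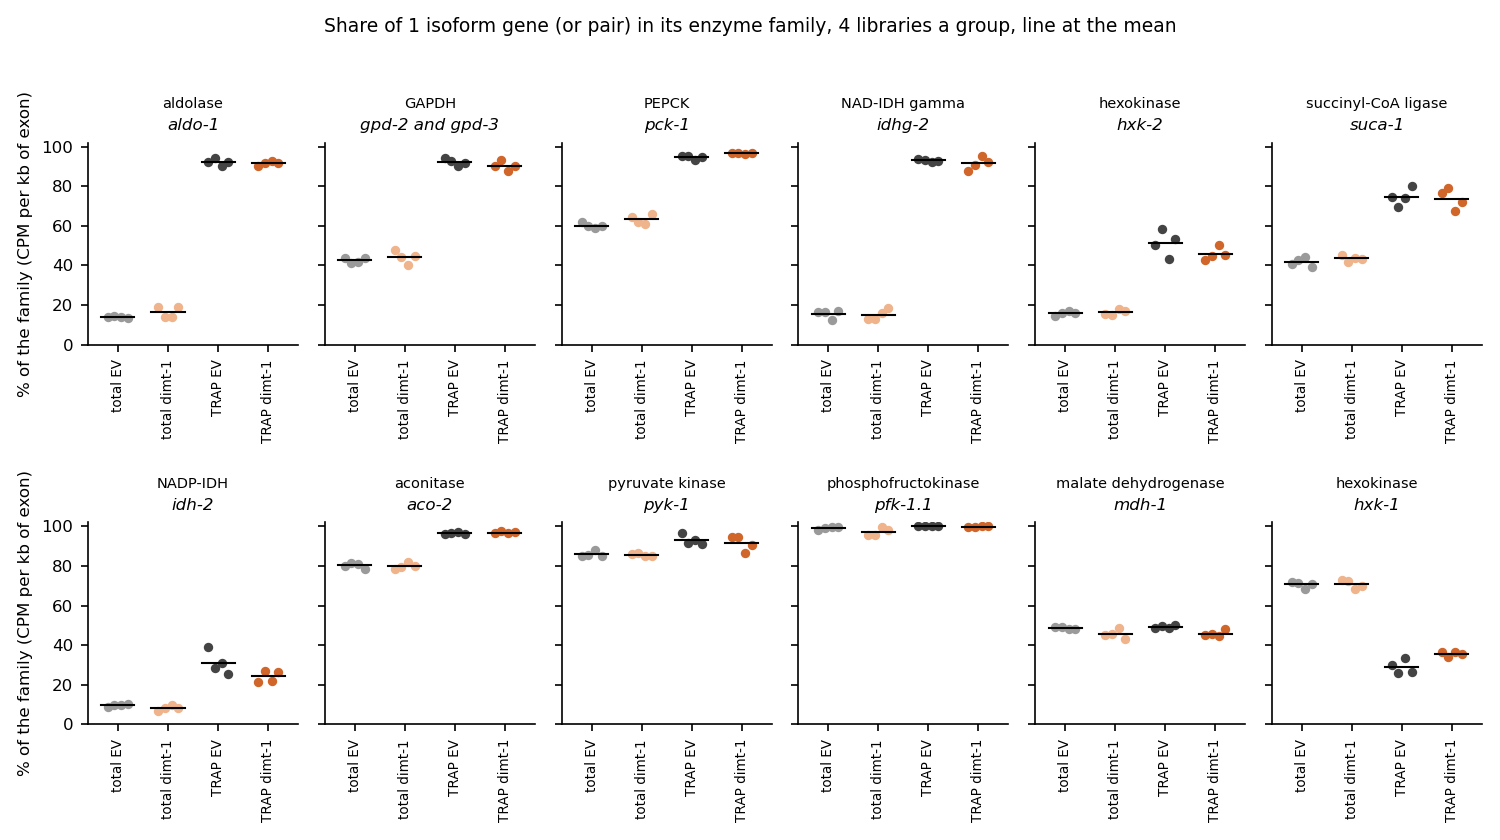
Share (%) of 1 gene or gene pair in the summed level per kilobase of its enzyme family, in 12 panels over 11 families (hexokinase has a panel for hxk-1 and for hxk-2), for the 4 groups of 4 libraries each. On EV aldo-1 goes from 14.0% in total RNA to 92.4% in TRAP and idhg-2 from 15.7% to 93.0%, and the dimt-1 RNAi groups lie beside the EV groups of the same fraction.

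The log2 ratio of the genes in a pair, taken within each library, tested these shifts over 15 pairs. On EV 12 of 15 pairs differed between TRAP and total RNA, all 12 without overlap (exact two-sided permutation test, p = 0.0286, the smallest that 4 against 4 libraries can give, adjusted p = 0.0357). The aldo-1 to aldo-2 ratio was 3.51 ± 0.35 in TRAP and -2.74 ± 0.06 in total RNA, a 76.2-fold shift. The idhg-1 to idhg-2 ratio was -3.20 ± 0.11 in TRAP and 2.97 ± 0.25 in total RNA. The summed gpd-2 and gpd-3 counts against gpd-1 and gpd-4 shifted 16.3-fold, pck-1 against pck-2 11.7-fold and suca-1 against sucg-1 4.15-fold.

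The 3 pairs that did not pass on EV were mdh-1 against mdh-2 (exact permutation p = 0.257), gpd-1 against gpd-4 (p = 0.914) and gpd-2 against gpd-3 (p = 0.0571). On dimt-1 RNAi 13 of 15 pairs differed (exact permutation p = 0.0286, adjusted p = 0.033). The pair that passed there in addition was gpd-1 against gpd-4, whose individual counts are uncertain, with a ratio of 0.99 ± 0.04 in TRAP and 0.76 ± 0.11 in total RNA. These tests took the libraries as unpaired. Every pair of genes that passed had no overlap between the fractions. It therefore had to shift the same way in 4 of 4 same-numbered TRAP and total RNA libraries, which adds no support. An exact sign-flip test over 4 cannot go below p = 0.125 and so cannot pass.

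The effect of dimt-1 RNAi was compared within total RNA of whole worms, where fewer cells of a type and less RNA per cell cannot be told apart. None of the 43 enzymes passed, beside 0% of 15441 genes (edgeR). At an unadjusted p under 0.05 there were 22 enzymes and 2504 genes. DESeq2 called 3 enzymes (fbp-1, aldo-2 and icl-1, all lower), beside 659 of the 15441 genes, 486 higher and 173 lower. With limma voom and sample weights 21 enzymes were called, all lower, beside 1601 genes, 690 higher and 911 lower. The median log2 fold change of the enzymes was -0.19, beside 0.01 over all genes, and 39 of 43 values were negative. In ipgm-1, pyc-1, aco-1, idhg-1 and icl-1, 11.6% of the enzymes, every dimt-1 RNAi library was below every EV library, beside 3.81% of all genes.

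The library labelled dimt-1 RNAi replicate 3 set much of this outcome. It was the highest of the 4 dimt-1 RNAi libraries for 35 of the 43 enzymes and within the EV range for 29, with a median log2 ratio to the EV mean of 0.02, whereas replicates 1, 2 and 4 stood at -0.38, -0.38 and -0.22. Without it 27 enzymes were lower and 1 higher, beside 8.03% lower and 6.99% higher of 15845 genes, with a median of -0.26. Leaving out any other library gave no call among the enzymes. Replicate 3 was singled out from these same data. Leaving out the library closest to EV widens the difference, so the calls made without it are descriptive only.

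By role, without that library, all 4 gluconeogenic and anaplerotic genes were lower, as were 8 of 10 pay-off genes, 3 of 3 pyruvate dehydrogenase genes, 3 of 3 cytosolic partners, icl-1, 5 of 13 TCA cycle genes and 3 of 9 preparatory genes. The isocitrate dehydrogenase subunits idha-1, idhb-1, idhg-1 and idhg-2 were among those that did not pass, as were the hexokinases and aldo-1. pck-2 had 136, 159, 153 and 138 CPM on EV and 79.9, 90.4, 153 and 97.6 CPM on dimt-1 RNAi, with replicate 3 alone in the EV range (-0.66 without it, adjusted p = 2.7e-05; -0.45 with it). icl-1 had 141, 137, 140.2 and 144 CPM on EV and 82.8, 112, 133 and 91.5 CPM on dimt-1 RNAi (-0.51 without replicate 3 and -0.39, adjusted p = 0.128, with it). aldo-2 had 341, 403, 565 and 406 CPM on dimt-1 RNAi beside 536 to 587 CPM on EV, and ldh-1 had 28.9, 33.0, 53.3 and 45.3 CPM beside 51.9 to 59.7.

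The 1 enzyme that was higher without that library, pfk-1.2, had 134, 124, 16 and 52 counts on dimt-1 RNAi beside 44, 22, 20 and 14 on EV (1.81 without replicate 3). Other markers moved with the same libraries. Intestine markers summed to 17628 to 20667 CPM on EV and 11771, 12734, 19708 and 14804 CPM on dimt-1 RNAi. Sperm markers summed to 43 to 56.8 CPM on EV and 197, 104.1, 50.6 and 217 CPM on dimt-1 RNAi, and body wall muscle markers overlapped between the conditions. Their part in the result was not tested.

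In TRAP 42 of the 43 enzymes could be tested, since pfk-1.2 fell below the filter on low counts, and none passed, beside 0% of 12164 genes (edgeR). At an unadjusted p under 0.05 there were 13 enzymes and 976 genes. DESeq2 called 6 enzymes, all lower, beside 164 of the 12164 genes, of which 56.7% were higher. With limma voom 3 enzymes were called, all lower, beside 128 genes, of which 18.75% were higher. Most genes called by limma voom were thus lower too. In the edgeR fit the median log2 fold change of the enzymes was -0.28, beside 0.05 over all genes, and 40 of 42 values were negative. Every dimt-1 RNAi library was below every EV library for 8 enzymes (19%), beside 2.04% of all genes, and these were gpd-2, gpd-3, pgk-1, pck-2, pyc-1, cts-1, idh-2 and icl-1.

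The lowest fitted values among these 8 genes were those of pck-2, icl-1 and pyc-1. pck-2 had 325, 362, 357 and 320.1 CPM on EV and 116, 149, 214 and 162 CPM on dimt-1 RNAi (-1.1, SE 0.18, adjusted p = 0.0735). pyc-1 had 188, 229, 230.2 and 195 CPM on EV and 132, 131, 125 and 116 CPM on dimt-1 RNAi (-0.76, adjusted p = 0.12). icl-1 had 749, 802, 642 and 599 CPM on EV and 316, 490.3, 497 and 334 CPM on dimt-1 RNAi (-0.78, adjusted p = 0.196). That no library of these 3 genes crossed between the conditions follows from how the 8 genes were picked. A further fit left out the library labelled dimt-1 RNAi replicate 3, which was singled out from these same data. There pck-2 (-1.27, adjusted p = 0.00859) and pyc-1 (-0.75, adjusted p = 0.0479) were lower, beside 0.236% of 13118 genes lower. Those calls were also made by DESeq2 and by limma voom with all libraries, and with a minimum of 10 counts in every library.

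The genes with the highest TRAP levels overlapped or nearly met between the conditions. aldo-1 had 2595, 3164, 4752 and 3539 CPM on dimt-1 RNAi, with replicate 3 inside the EV range of 4084 to 5624. gpd-3 had 1236, 1761, 1533 and 1475 CPM, all below the EV values of 1946 to 2639.7 (-0.62, adjusted p = 0.268), and enol-1 had 3555, 4743, 4072 and 4206 CPM beside 3861 to 5058. The TRAP library labelled dimt-1 RNAi replicate 3 was the highest of its group for 14 enzymes and the lowest for 17. For the enzymes the TRAP library nearest EV was replicate 2, the highest for 23. Its median log2 ratio to the EV mean was -0.05, beside -0.36, -0.33 and -0.31 for replicates 1, 3 and 4. The first principal component of TRAP held 24.7% of the variance. There replicate 3 lay at -47.8, inside the EV range of -59.2 to 1.1, while the other dimt-1 RNAi libraries ran from 27.2 to 46.9. The sperm marker sum of replicate 3, 38.6 CPM, was also inside the EV range of 28.4 to 40.5 CPM, beside 163, 63.2 and 184 CPM in the others. Marker lists moved with the same TRAP libraries, although no marker passed the test. Body wall muscle markers had negative values in 11 of 12 cases (median log2 fold change -0.22) and summed to 159411 to 202602 CPM on EV and 140353 to 188572 CPM on dimt-1 RNAi. Intestine markers, negative in 8 of 10 cases, summed to 11320 to 15032 CPM on EV and 7136 to 13186 CPM on dimt-1 RNAi. Germline and oocyte markers were positive in 9 of 10 cases (median 0.17), and all 12 sperm markers tested were positive (median 1.93). The part of these cell types in the enzyme values was not tested.

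**Figure D4:**
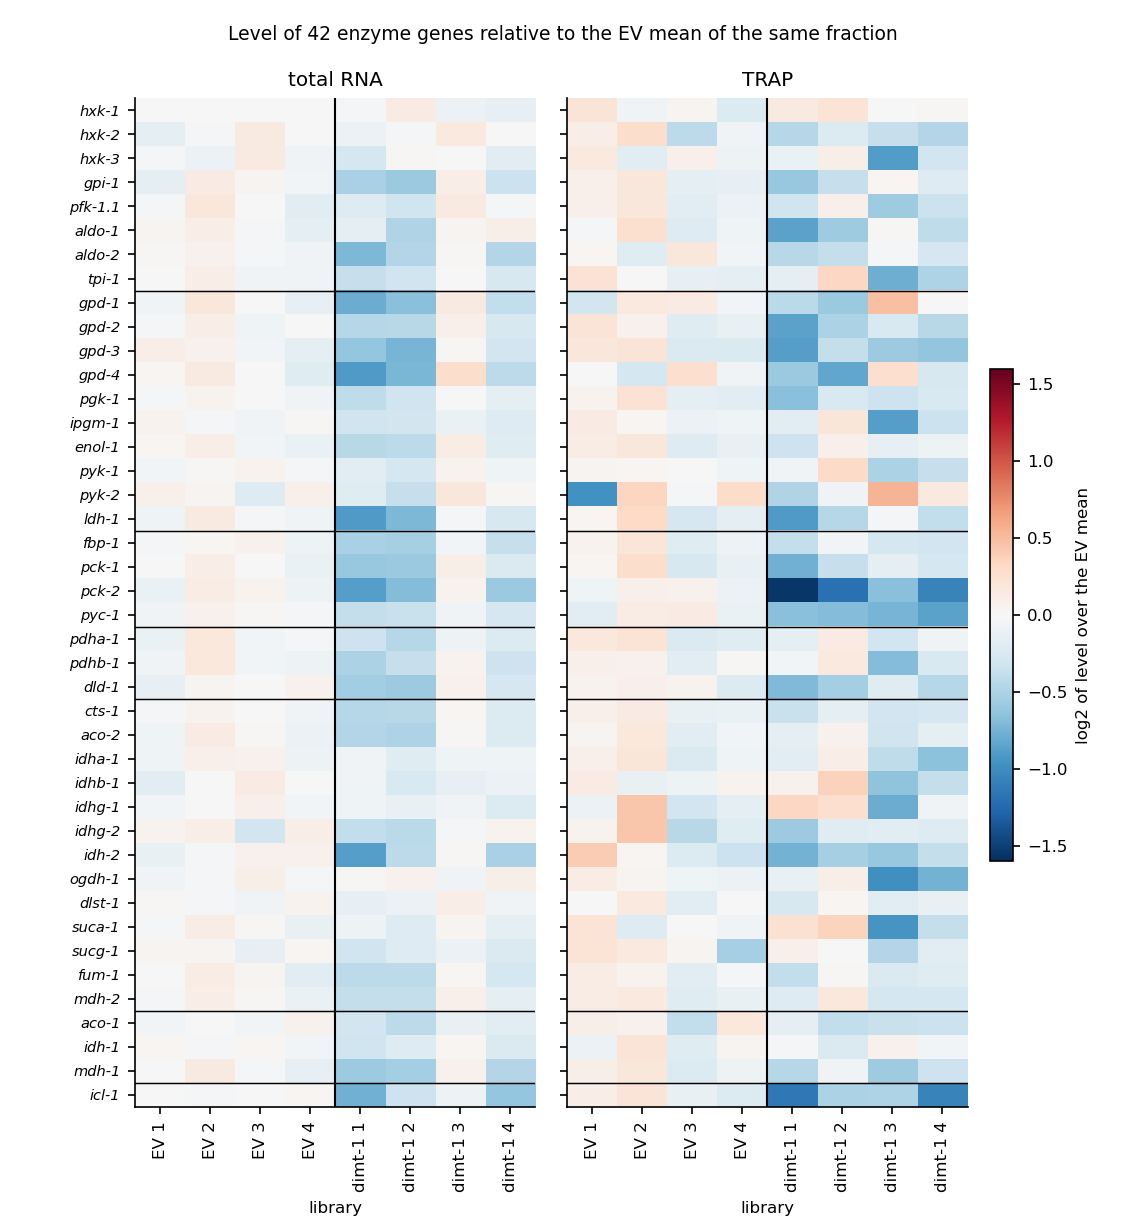
Log2 level of 42 enzymes (pfk-1.2 left out) over the EV mean of the same fraction, 1 column per library, total RNA and TRAP in separate panels, blue below and red above the EV mean. In total RNA the column of dimt-1 RNAi replicate 3 (median 0.02) looks like the EV columns and the other dimt-1 RNAi columns have medians of -0.38, -0.38 and -0.22. In TRAP the column nearest the EV mean is that of dimt-1 RNAi replicate 2 (median -0.05), beside -0.36, -0.33 and -0.31 for replicates 1, 3 and 4. There pck-2, pyc-1 and icl-1 are below the EV mean in all 4 dimt-1 RNAi columns.

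The pair ratios were compared in the same way between dimt-1 RNAi and EV. In total RNA 0 of 15 pair ratios passed (smallest exact permutation p = 0.0571, adjusted p = 0.429). In TRAP 0 of 15 passed after adjustment, and the ratios of 3 pairs did not overlap (exact permutation p = 0.0286, adjusted p = 0.143), namely hxk-1 to hxk-3, mdh-1 to mdh-2 and pck-1 to pck-2. The pck-1 to pck-2 ratio was 3.46 ± 0.23 on EV and 4.20 ± 0.14 on dimt-1 RNAi.

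The change of TRAP relative to total RNA between the RNAi conditions was tested as the interaction over all 16 libraries. TRAP held muscle RNA and total RNA that of the whole worm, so the interaction is not translation efficiency within muscle. A change of RNA in other tissues can also move it. None of the 43 enzymes passed, beside 0% of 15897 genes (edgeR), and 3 enzymes and 2183 genes had an unadjusted p under 0.05. Those enzymes were pyc-1 (-0.48, adjusted p = 0.171), pck-2 (-0.61, adjusted p = 0.278) and hxk-2 (-0.39, adjusted p = 0.352). DESeq2 called 1 enzyme, pyc-1, beside 330 of the 15897 genes, and limma voom called 0 enzymes and 0 genes. The median over the enzymes was 0.00, beside 0.16 over all genes.

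Genes that feed or leave these pathways were taken from a separate list, of which 29 of 32 symbols were in the table. On EV 21 of 29 were higher in TRAP, 0 were lower and 8 did not pass (median log2 0.92), and on dimt-1 RNAi 19 were higher and 0 lower (median 0.93). All 6 further genes of succinyl-CoA and succinate metabolism were higher, among them the succinyl-CoA ligase subunits sucl-1 (3.58 on EV) and sucl-2 (1.02, a sign that turned under scaling by library size alone) and the succinate dehydrogenase cytochrome b subunit mev-1 (3.28). The 5 genes of pyruvate entry were all higher as well, of which pdhk-2 and pdp-1 turned sign under that scaling. Of the 10 genes of glycogen and trehalose metabolism 6 were higher, where gsy-1, pygl-1 and tre-1 turned on EV. Of the 4 pentose phosphate genes 2 were higher on EV, gspd-1 and tald-1, both of which turned, and 0 on dimt-1 RNAi. The malic enzyme men-1 was higher by 2.73 on EV and 2.52 on dimt-1 RNAi. In a fit with scaling by library size alone, added after seeing the data, 9 of the 21 genes called higher on EV and 7 of the 19 on dimt-1 RNAi turned negative, with 12 higher and 13 lower on EV and 10 higher and 13 lower on dimt-1 RNAi. Between dimt-1 RNAi and EV 0 of 29 passed in total RNA and 0 of 28 in TRAP (edgeR), with 4 and 5 at an unadjusted p under 0.05. The lowest adjusted p among them belonged to the glycogen debranching enzyme agl-1 in total RNA (-0.55, SE 0.15, adjusted p = 0.126).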

How the data were processed

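Ribosome-bound mRNA of muscle (8 TRAP libraries) and total RNA of the lysates (8 libraries) were prepared with a TruSeq Stranded mRNA kit. The authors deposited 1 table of raw counts per gene, in whole numbers with no normalization, and 0 of its sample columns were left unmapped. The submitters' processing notes name STAR 2.7.2b and WBcel235, while the counting of the muscle libraries and its use of strand are not given in the sources used here. Between 78.1% and 90.0% of the deposited counts from 1 to 20 were even, so the counts were also tested after division by 2. The 16 germline libraries were not analysed here.

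Counts were filtered with filterByExpr, scaled by TMM and tested with edgeR 4.0.16 quasi-likelihood fits (R 4.3.3) over all genes, with Benjamini-Hochberg adjustment and a threshold of 0.05. Total RNA and TRAP were compared between RNAi conditions, and TRAP with total RNA within each condition. The change of TRAP relative to total RNA between RNAi conditions was tested as the interaction over 16 libraries. Levels are TMM-scaled CPM, in places per kilobase of exon (Ensembl annotation of WBcel235). The ratio of 2 genes of a family used counts plus 0.5 and an exact permutation test, adjusted over 15 pairs. DESeq2 1.42.0, limma 3.58.1 voom with sample weights, other scalings and filters, a replicate block and leaving out each library were tried as alternatives. The scripts were tested on simulated data.

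The 43 genes and the other lists were chosen with earlier results of these data known. All 43 were followed, and values for each library were given for isoenzyme groups and for the genes with the highest and lowest ratio of TRAP to total RNA. icl-1, pyc-1, ldh-1 and enol-1 were shown by library after their values were seen.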

Additional observations from a re-analysis of the deposited data

Results flagged for a closer look

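Within each group of 4 libraries, the highest or lowest value was compared with the rest by Dixon's test, over 172 groups of enzyme levels and 60 groups of isoenzyme ratios. A library stood apart in 14 of the 232 groups (6.03%), and chance alone gives about 1 in 20.

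In total RNA on EV, replicate 3 stood apart for 3 levels and 1 ratio. pyk-2 was at 16.2 CPM beside 19.2 to 19.7 CPM in the others, sucg-1 at 71.3 CPM beside 80.4 to 81.2 CPM, idhg-2 at 11 CPM beside 14 to 14.6 CPM, and the log2 ratio of idhg-1 to idhg-2 was 3.35 beside 2.82 to 2.87. Replicate 2 stood apart for the pyruvate dehydrogenase subunit pdhb-1, at 152 CPM beside 128 to 131 CPM.

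In total RNA on dimt-1 RNAi, mdh-1 was at 305 CPM in the library labelled replicate 3 and at 194, 199 and 211 CPM in the others. Replicate 2 stood apart for idha-1, at 118.8 CPM beside 129 to 131 CPM, and for the log2 ratio of hxk-2 to hxk-3, at 0.349 beside 0.54 to 0.58.

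In TRAP on EV, pfk-1.2 had 0.524 CPM in replicate 1 and 0 in the other libraries, and the log2 ratio of pfk-1.1 to pfk-1.2 in that library was 10.8 beside 15.2 to 15.7. dld-1 was at 576 CPM in replicate 4 beside 696 to 706 CPM. In TRAP on dimt-1 RNAi, idhg-2 was at 365 CPM in replicate 1 beside 474 to 486 CPM, mdh-2 at 3391 CPM in replicate 2 beside 2481 to 2619 CPM, and the log2 ratio of pck-1 to pck-2 was 4 in replicate 3 beside 4.25 to 4.30.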

How the results depend on the processing

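For dimt-1 RNAi against EV in total RNA, where 0 enzymes were called, DESeq2 called 3, limma voom with sample weights 21 and a fit with no filter on low counts 1 (659, 1601 and 346 genes in all), and leaving out single libraries gave 0 to 28. In TRAP, also with 0 called, DESeq2 called 6, limma voom 3, a minimum of 10 counts in every library 2 and no filter 4 (164, 128, 8 and 177 genes), and leaving out single libraries gave 0 to 2. Without the library labelled dimt-1 RNAi replicate 3, 2379 genes were called in total RNA, 49 in TRAP and 42 for the interaction. For the interaction DESeq2 called 1 enzyme and 330 genes. The 5 enzymes lower in TRAP on EV became 3 with DESeq2 size factors, 3 with DESeq2 and 10 with library size only, and the 3 lower on dimt-1 RNAi became 12 with library size only. That scaling called 8461 genes in place of 5437 on EV and 8852 in place of 4162 on dimt-1 RNAi.

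With library size only, these log2 values turned negative on EV: hxk-3 (-0.34), pyk-2 (-0.18), pck-2 (-0.22), pyc-1 (-1.09), cts-1 (-0.13), ogdh-1 (-0.26) and sucg-1 (-1.32). On dimt-1 RNAi they were hxk-3 (-0.48), gpd-1 (-1.34), pyk-2 (-0.0023), pck-2 (-0.80), cts-1 (-0.11), ogdh-1 (-0.64) and sucg-1 (-1.2). The scaling itself lowers every TRAP value, by its construction. Calls on EV numbered 38 to 39 when single libraries were left out and 32 to 37 on dimt-1 RNAi. The isoenzyme ratios that passed kept their direction in every alternative run, and the pfk-1.1 to pfk-1.2 shift went from 6.83 to 3.92 on the log2 scale with 10 counts added.

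A replicate block was fitted because the labels give TRAP and total RNA of each RNAi condition the same numbers, as pull-down and input, without stating a shared lysate. Deviations of same-numbered TRAP and total RNA libraries correlated at 0.0996 to 0.343 on dimt-1 RNAi, above the -0.076 to 0.084 of other same-numbered libraries, and at -0.008 to 0.034 on EV, within that range. Such correlations cannot decide whether libraries were paired, since a low value can also occur in paired libraries. For its germline TRAP, the paper took total RNA from the same supernatant as the pull-down. A pairing is therefore possible in both conditions, and the unpaired fits were kept as the reported ones. With the block 0 enzymes were called in total RNA, in TRAP and for the interaction, 39 on EV and 36 on dimt-1 RNAi, where pck-2 was added. At these depths 1 enzyme, pfk-1.2, was limited by its counts.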
